A study of Mus musculus with 42 samples.

Results

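The comparison described here sets lung mesenchyme of mice 56 days after bleomycin against the same lineage 14 days after it. It uses 8 of the 42 samples of the series, 4 RNA-seq libraries at day 14 and 4 at day 56, chosen by their labels alone. The 4 sham RNA libraries of the same strain are given beside them as the uninjured level. All 12 came from C57BL/6 mice, from GFP-positive cells of a Col1a2 lineage trace sorted without CD45 (leukocytes), without CD326 (EpCAM, epithelium) and without uptake of the dye DAPI, which marks dead cells. Bleomycin is a drug that injures the lung lining and provokes scarring. Lungs were perfused, digested for 45 min, cleared of red cells by lysis and sorted.

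A lineage trace marks cells permanently once its driver has acted, so these libraries hold descendants of Col1a2-expressing cells and not 1 purified cell state. The labels name no Cre allele, time of induction, age or sex. The gate used no endothelial marker. The labels number the replicates without saying that they came from separate animals, so the spread behind each p-value is that of the libraries and may be technical. The sex transcripts given below put more than 1 animal in the day 14 and in the sham group, and leave the point open at day 56. The libraries carried the genes that define lung mesenchyme. Pdgfra, a receptor of resident fibroblasts, held 26513 to 38033 rescaled reads at day 14 and 25330 to 54454 at day 56, and Epcam held at most 26.9 in any of the 8.

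After bleomycin, lung fibroblasts multiply, take on a contractile and matrix-secreting state and lay down collagen, elastin and fibronectin. In mice this scarring is known to recede over the following weeks. Resting lung mesenchyme is a mixture of alveolar fibroblasts, which express Tcf21, Npnt and Inmt, adventitial fibroblasts around vessels and airways, which express Pi16, and smaller populations of peribronchial fibroblasts and pericytes. The comparison asks which genes of the injured state were lower at the later time, and which genes of resting fibroblasts were higher.

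Values below are rescaled reads, the deposited normalized values brought to a common scale with 1 median-of-ratios factor per library. A change is a log2 fold change of the rescaled value plus 1, day 56 against day 14, so a negative change is a lower level at day 56. The test is limma's moderated test over 21100 genes with Benjamini-Hochberg adjustment, and a gene is said to rise or fall only where its adjusted p is at most 0.05. Recovered whole reads per library numbered 17999215 to 47969172 at day 14 and 14288605 to 40840180 at day 56. Day 56 replicates 2 and 3 detected 16679 and 16563 genes, against 19384 to 21379 in the other 6 libraries. Xist, transcribed in female cells, was present in all 4 day 56 libraries and in day 14 replicates 1 and 2, whereas day 14 replicates 3 and 4 held Y-linked transcripts. Of the sham libraries, replicate 2 held Xist and replicates 1, 3 and 4 held Y-linked transcripts. Sham replicates 1 to 4 detected 16913, 17561, 20686 and 21381 genes. The sex of the cells thus moved with the day, and between sham and day 56 as well.

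Libraries of the same group differed by transcript length, most of all day 56 replicate 2. Over 11538 genes with a mean of at least 100 rescaled reads and a known length, transcripts of 4000 to 8000 bases were lower in day 56 replicate 2 than in the mean of the other 3 day 56 libraries, by a median of -0.49 on the log2 scale. Transcripts of up to 1000 bases were higher there by a median of 0.67. In day 56 replicates 1, 3 and 4, each set against the other 3, the medians were 0.26, -0.013 and 0.31 for the longer class and -0.35, 0.19 and -0.48 for the shorter. Among the sham libraries the medians were -0.16 to 0.16 and -0.43 to 0.54. Among the day 14 libraries both classes lay between -0.098 and 0.085. The part of sex and of length in single results was not tested beyond fits that carry Xist status as a term, that keep the Xist-positive day 14 libraries as the only day 14 libraries, that leave out libraries, or that adjust for length. Their values are given where they move a result.

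At day 56, 1792 genes were lower than at day 14 and 1205 were higher, together 14.2% of the genes tested, with 8.49% lower and 5.71% higher. A change of at least 1 on the log2 scale was seen in 1183 of the lower and 707 of the higher genes, 5.61% and 3.35% of those tested. In 20.2% of the genes tested the day 14 and day 56 libraries did not overlap. The split between directions moved with the scaling. Of the called genes 40.2% were higher on the rescaled values, 20.4% on the values as deposited (777 higher, 3035 lower) and 49.9% on reads scaled by library total (1637 higher, 1644 lower). Those scalings moved the median change of all genes by -0.19 and 0.11 on the log2 scale. An edgeR quasi-likelihood test on the recovered reads, with a shift of 0.11, called 1390 higher and 1318 lower, or 51.3% higher. With Xist status in the fit 730 were higher and 1194 lower (3.46% and 5.66%), and with the Xist-positive day 14 libraries alone 441 and 722 (2.09% and 3.42%). Without day 56 replicate 2, 6.58% were higher and 9.31% lower, without day 56 replicates 2 and 3 5.11% and 8.32%, and after adjustment for length, over 17825 genes, 8.11% and 10.9%. DESeq2 called 1812 and 2033. Without day 14 replicate 2, 754 were higher and 1107 lower, and without day 14 replicate 3 the counts were 783 and 1241. Where a gene list below has 0 members called in a direction, edgeR also called 0 there, except 1 contractile gene higher, and 0 to 5 members had an unadjusted p under 0.05 in that direction. DESeq2 called 1 contractile and 1 endothelial gene higher, and 1 cholesterol, 1 epithelial and 2 endothelial genes lower in such lists. These are bulk samples, in which fewer cells of a type and less RNA per cell cannot be told apart.

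The 5 genes with the lowest adjusted p all fell. Spp1 encodes osteopontin, a secreted matrix phosphoprotein, and held 321903, 584715, 385643 and 287897 rescaled reads in the day 14 libraries and 2602, 4048, 3465 and 3206 in the day 56 libraries. The mean fell 119-fold, from 395039 ± 132782 (SD, n = 4) to 3330 ± 600 (SD, n = 4), a log2 change of -6.85 ± 0.31 (SE, adjusted p = 4.8e-08). Every day 56 library was below every day 14 library and above every sham library, which held 520 to 1584. Timp1, a secreted inhibitor of matrix metalloproteinases, held 34328, 41827, 36268 and 26937 at day 14 and 1799, 3515, 2264 and 1925 at day 56, a change of -3.91 ± 0.21 (SE, adjusted p = 3.1e-07). Its day 56 libraries overlapped the 1884 to 2915 of sham. Inhba, a subunit of the growth factor activin A, held 4651, 3867, 4304 and 3768 at day 14 and 511, 458, 516 and 452 at day 56, a change of -3.09 ± 0.18 (SE, adjusted p = 4.6e-07). The 4 day 56 values lay close together and inside the sham range of 394 to 650. C1qtnf6, a secreted protein with a C1q domain, changed by -3.12. Nrep, known from neuronal regeneration, changed by -2.16 and stood at 4235 to 5169 at day 56, between the 16639 to 25625 of day 14 and the 2102 to 2805 of sham, overlapping neither.

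**Figure D1:**
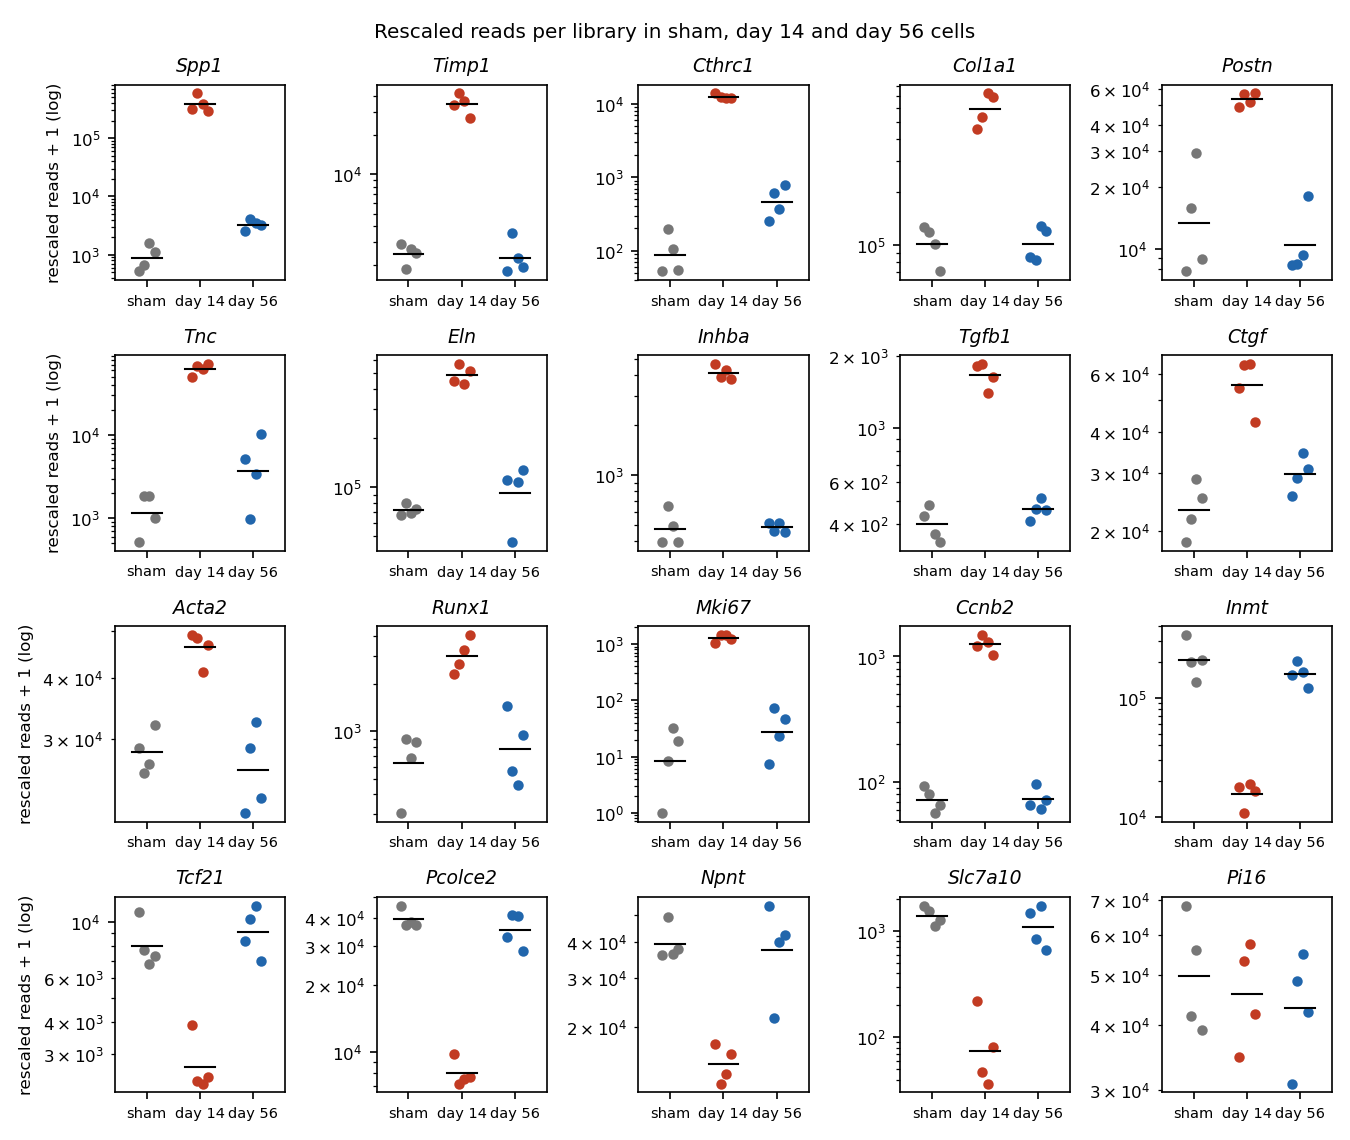
Rescaled reads plus 1 (log axis) of 20 genes in each sham, day 14 and day 56 library, one point per library, with the geometric mean of each group as a black line. Spp1 and Cthrc1 at day 56 lie between sham and day 14 without overlap, the day 56 values of Timp1, Inhba and Ccnb2 overlap sham, and Pi16 overlaps across all 3 groups.

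Collagen genes fell together. Of 20 collagens 14 fell and 1 rose, with a median change of -1.95 against -0.08 over all genes tested. Col1a1, a chain of type I collagen, held 455261, 529123, 724581 and 689950 at day 14 and 85062, 81419, 127034 and 118853 at day 56. It fell 5.82-fold, a change of -2.54 ± 0.24 (SE, adjusted p = 1.9e-05), and its day 56 mean of 103092 ± 23212 (SD, n = 4) stood beside 103422 ± 24251 (SD, n = 4) in sham. Col3a1, of type III collagen, fell from 1821490 ± 187194 (SD, n = 4) to 517962 ± 185812 (SD, n = 4), a change of -1.88. Col1a2, the gene behind the lineage trace, changed by -1.99 and Col5a1, which sets fibril diameter, by -2.13. Col7a1, of the anchoring fibrils beneath epithelia, went from 2024 to 4275 across the day 14 libraries to 117 to 236 at day 56, a change of -4.44 ± 0.33 (SE, adjusted p = 4.1e-06). Col13a1, a transmembrane collagen and marker of alveolar fibroblasts, was the member that rose, from 787 to 2096 at day 14 to 3871 to 9387 at day 56, with no overlap (change 2.10). Col6a1, Col6a2, Col14a1, Col15a1 and Col18a1 did not pass the test, with changes of -0.70 to -0.15.

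The collagens did not stand equally low in every day 56 library. Relative to the sham mean, the median of the 20 collagens was 1.71 to 1.89 on the log2 scale in the day 14 libraries and 0.12, -0.96, 0.10 and 0.30 in day 56 replicates 1 to 4. Replicate 2, the library low in long transcripts, stood apart, and 19 of the 20 collagen transcripts exceed 4000 bases. Without that library 14 collagens fell, and after adjustment for length 16 did.

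**Figure D2:**
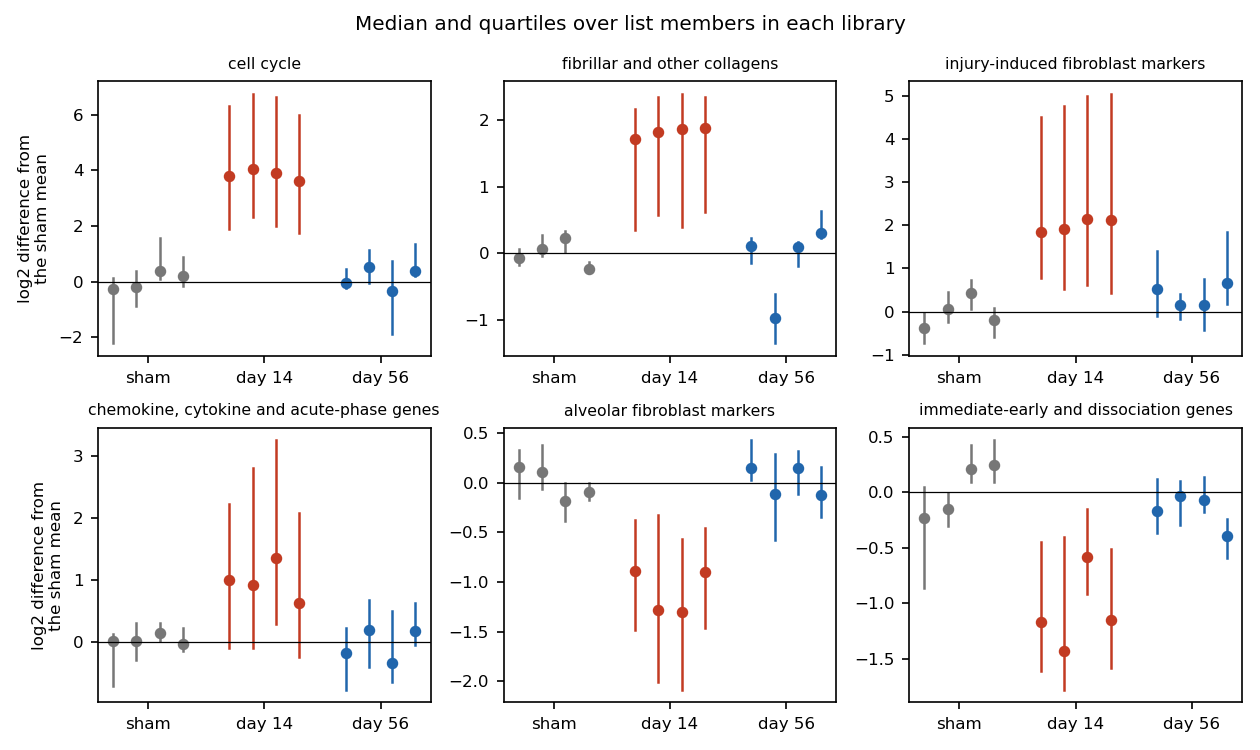
Median (point) and quartiles (line) over the members of 6 gene lists in each of the 12 libraries, as the log2 difference from the sham mean. Cell cycle medians reach 3.63 to 4.06 in the day 14 libraries, and the collagen median of day 56 replicate 2 lies at -0.96, apart from the other day 56 libraries.

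Of 25 genes that fold, trim or crosslink collagen, 13 fell and 0 rose by limma, with a median of -0.69. Sparc, a collagen-binding matricellular protein, went from 479327 to 512089 at day 14 to 115964 to 166857 at day 56, a change of -1.77 ± 0.16 (SE, adjusted p = 1.9e-05). Loxl2, a lysyl oxidase that crosslinks collagen, changed by -2.16, and Fkbp10, a prolyl isomerase of the endoplasmic reticulum that acts on collagen, by -1.20. The groups of all 3 genes did not overlap. Serpinh1, the collagen chaperone HSP47, and P4ha1, a proline hydroxylase, gave -0.30 and 0.43 and did not pass.

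Among 28 matrix glycoproteins, proteoglycans and elastic fibre genes 15 fell and 6 rose, with a median of -0.76. Tnc, tenascin C of wound matrix, held 49267, 67379, 62964 and 71127 at day 14 and 5118, 986, 3454 and 10356 at day 56, a change of -4.08 ± 0.56 (SE, adjusted p = 0.00031). Its day 56 libraries were widely spread, and replicate 2, the library low in long transcripts, was the lowest of them. Fn1, fibronectin, held 295560 to 410965 at day 14 and 14574 to 77524 at day 56, a change of -3.23, and Eln, elastin, changed by -2.41. Postn, periostin, which links collagen fibrils, held 48883, 56649, 51490 and 56948 at day 14 and 8379, 8490, 9301 and 17997 at day 56, a change of -2.35. Replicate 4 was the highest of its day 56 libraries and still below all of day 14. Efemp2, fibulin 4 of elastic fibres, changed by -0.92.

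The members of that list that rose were lower at day 14 than in every sham library. Ogn, a small leucine-rich proteoglycan, went from 17863 to 28014 at day 14 to 49018 to 72429 at day 56, a change of 1.48 ± 0.18 (SE, adjusted p = 0.00012), with 59479 to 79334 in sham. Efemp1, fibulin 3, rose by 1.84, Fbln1 by 1.44 and Npnt, an integrin ligand made by alveolar fibroblasts, by 1.34. Fbln5, which helps assemble elastic fibres, rose by 0.99, with an adjusted p of 0.063 with the Xist-positive day 14 libraries alone. For Dcn, decorin, the change of 0.75 (adjusted p = 0.031) did not pass in 11 of 22 alternatives, among them the fits without day 14 replicate 1, 2 or 4 or day 56 replicate 3 or 4, at up to 0.15. The change of -0.51 of Mfap5, a microfibril protein (adjusted p = 0.039) was lost in 13 of them, including without any single library other than day 56 replicate 2, at up to 0.13.

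Of 18 markers reported for fibroblasts of injured lung, 11 fell and 2 rose, with a median of -1.74. Cthrc1, a secreted protein of matrix-producing fibroblasts, held 13877, 12237, 11873 and 11973 at day 14 and 256, 614, 368 and 784 at day 56. It fell 24.7-fold, a change of -4.75 ± 0.40 (SE, adjusted p = 1.1e-05), and all 4 day 56 libraries were above the 51.1 to 194 of sham. Grem1, a secreted antagonist of bone morphogenetic proteins, held 1807, 1822, 1432 and 2753 at day 14 and 75.4, 0, 58.1 and 154 at day 56, a change of -6.04 ± 1.32 (SE, adjusted p = 0.0074). Runx1, a transcription factor found in activated fibroblasts, held 2293, 2644, 3247 and 4060 at day 14 and 1452, 558, 461 and 953 at day 56, a change of -1.95 ± 0.38 (SE, adjusted p = 0.0035). The groups of both genes did not overlap. With the Xist-positive day 14 libraries alone, where 5 of the 18 fell, the adjusted p was 0.089 for Grem1 and 0.079 for Runx1, and without day 56 replicates 2 and 3 it was 0.053 for Runx1. Lrrc17, a secreted leucine-rich repeat protein, rose by 1.32. Mmp11, stromelysin 3, rose by 0.83, and its adjusted p was 0.051 without day 14 replicate 2, 0.059 with the Xist-positive day 14 libraries alone and 0.093 without day 56 replicates 2 and 3.

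**Figure D3:**
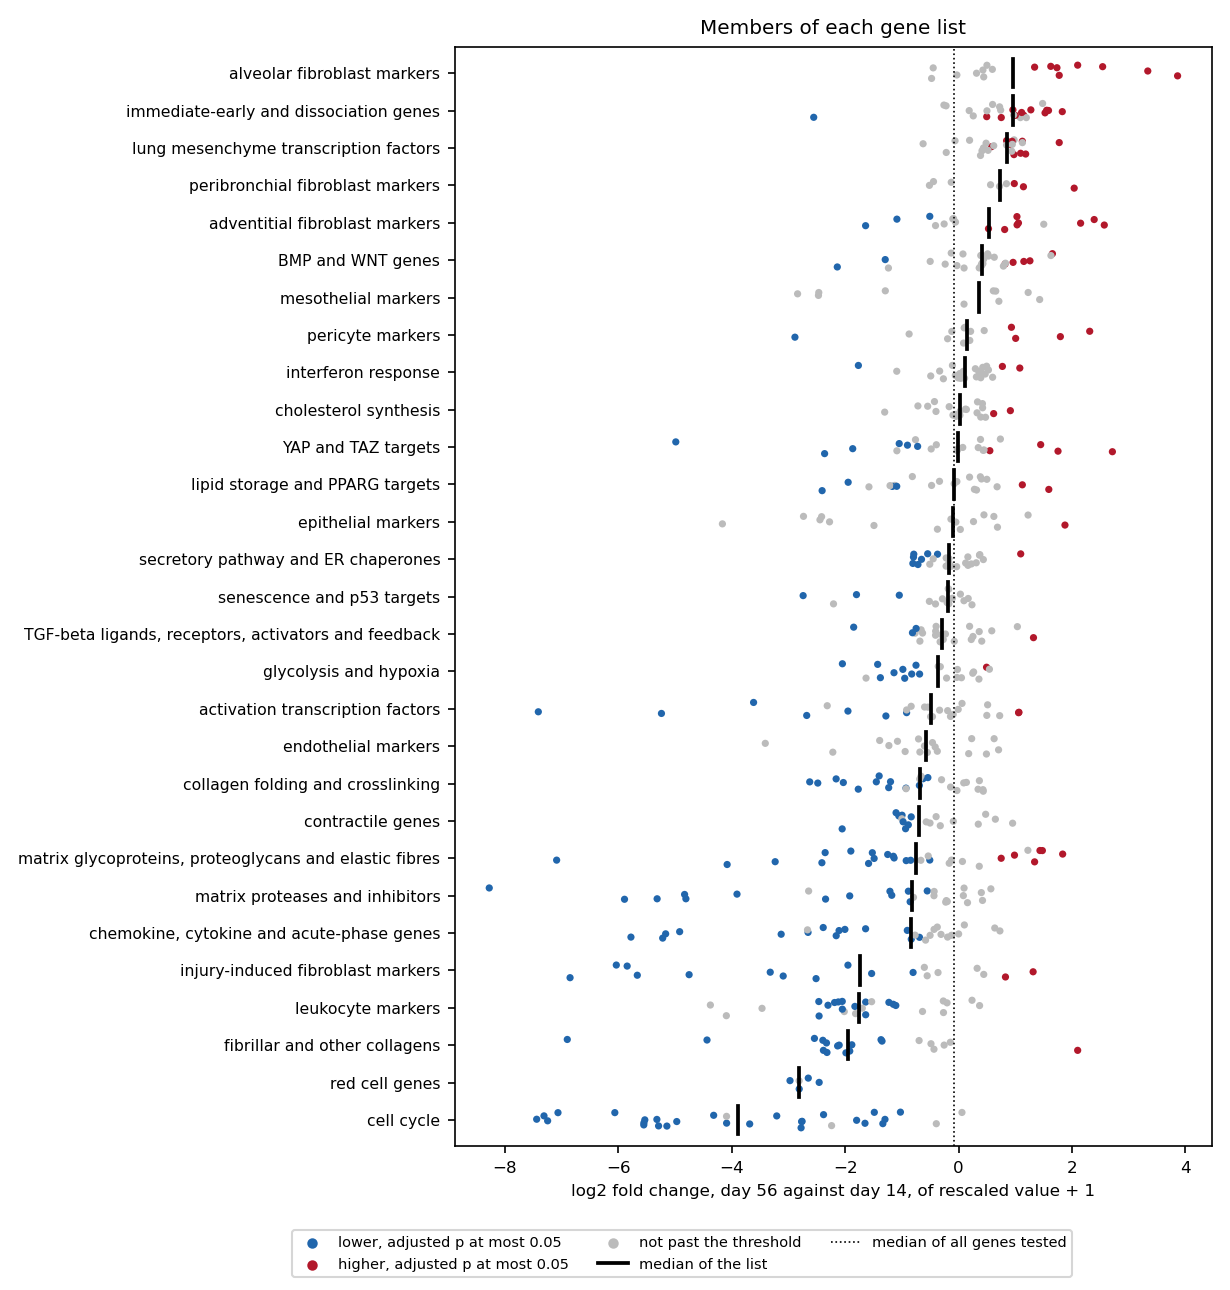
Log2 fold change at day 56 against day 14 of each tested member of the gene lists, one point per gene coloured by its call, with the list median as a bar and the median of all genes tested as a dotted line. Cell cycle genes have a median of -3.89 and alveolar fibroblast markers a median of 0.97.

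Contractile genes fell in part. Of 18, 8 fell and 0 rose by limma, with a median of -0.70. Acta2, the smooth muscle actin used to name myofibroblasts, held 49011, 48396, 41212 and 46654 at day 14 and 21186, 28771, 32524 and 22726 at day 56. This 1.76-fold fall, a change of -0.83 ± 0.15 (SE, adjusted p = 0.0023), brought it to a range that overlapped the 25605 to 32105 of sham. Actg2, another smooth muscle actin, changed by -2.05 and the tropomyosin Tpm1 by -1.10, and caldesmon, Cald1, fell 2.01-fold. Myh11, the myosin of mature smooth muscle, gave 0.48 and did not pass. Flna, filamin A, gave -0.93 (adjusted p = 0.039), and its call was lost in 12 of 22 alternatives, including without any single day 14 library or day 56 replicate 3, at up to 0.22.

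Reported targets of YAP and TAZ, the mechanically regulated co-activators, split. Of 22, 6 fell and 4 rose, with a median of -0.01. Ctgf, the matricellular protein CCN2, held 54454, 64079, 64445 and 42861 at day 14 and 25552, 29028, 34613 and 30853 at day 56, a change of -0.90 ± 0.17 (SE, adjusted p = 0.0034). Cyr61, its relative CCN1, moved the other way, from 54160, 36601, 37424 and 27322 at day 14 to 149851, 165546, 150652 and 70256 at day 56, a change of 1.75 ± 0.26 (SE, adjusted p = 0.0006). Gadd45b, a stress-response gene, rose by 1.45, and Igfbp3, which binds insulin-like growth factors, by 2.71. With Xist status in the fit 2 members fell, and with the Xist-positive day 14 libraries alone 1.

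Of 23 genes of the TGF-beta pathway, the best known profibrotic signal, 3 fell and 1 rose. The other 19 were not called, and over all genes tested 14.2% were called, 8.49% lower and 5.71% higher. The counts are near that share, so only single genes are described. Tgfb1, the ligand, held 1803, 1841, 1392 and 1635 at day 14 and 411, 462, 511 and 458 at day 56. The 3.62-fold fall, a change of -1.85 ± 0.18 (SE, adjusted p = 2.1e-05), took it to a range that overlapped the 336 to 480 of sham. Pmepa1, a feedback inhibitor, changed by -0.75. Itgb1, the integrin beta 1 chain, changed by -0.81, with an adjusted p of 0.073 with the Xist-positive day 14 libraries alone. Tgfbi, a matrix protein named for its induction by TGF-beta, rose by 1.32. The receptors Tgfbr1 and Tgfbr2 and the signal carriers Smad2 and Smad3 gave -0.40 to 0.36 and did not pass.

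Cell division genes had the lowest median of the lists. Of 30, 26 fell and 0 rose by limma, with a median of -3.89. Ccnb2, the mitotic cyclin B2, held 1205, 1483, 1307 and 1032 at day 14 and 64.9, 95.8, 60.8 and 71.6 at day 56, a 17.1-fold fall and a change of -4.09 ± 0.28 (SE, adjusted p = 2.4e-06). The sham libraries held 56.2 to 92.9, which the day 56 range overlapped. Cdc20, an activator of the anaphase-promoting complex, changed by -3.68 and Rrm2, of deoxynucleotide synthesis, by -3.21. Mki67, the Ki-67 antigen, held 1047, 1417, 1452 and 1203 at day 14 and 6.28, 72.4, 21.7 and 45.4 at day 56, a change of -5.53 ± 0.93 (SE, adjusted p = 0.0014). Top2a, the topoisomerase of dividing cells, held 1350, 2169, 1357 and 1240 at day 14 and 37.7, 65.4, 0 and 95.2 at day 56, a change of -6.06 ± 1.51 (SE, adjusted p = 0.015). Its call was lost with Xist status in the fit, with the Xist-positive day 14 libraries alone, without day 56 replicates 2 and 3, and without day 14 replicate 2, where the adjusted p was 0.052. The members that did not pass were Mcm4, Mcm5 and Pcna, of DNA replication, and Ccne1, cyclin E1, with 0.06, -4.09, -0.39 and -2.24. Mcm5 was at 0 in day 56 replicate 3 alone. From 20 to 26 members fell with Xist status in the fit, with the Xist-positive day 14 libraries alone, without day 56 replicates 2 and 3, and after adjustment for length.

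Promoters of mitotic genes are known for CCAAT boxes, bound by NF-Y, and for the cell cycle homology region, bound by the DREAM complex, and are shown because these genes moved together. RefSeq windows of 300 bases around the start on GRCm38.p6 were matched for 24 of the 30 genes and gave 25 windows. The letters CCAAT, on either strand, were in 84.0% of them, against 37.4% of all 32851 promoters, and 48.0% held at least 2 matches against 11.7%. The letters TTTGAA, on either strand, were in 52.0% against 17.9%. The 1647 windows of all genes that fell held them in 38.1% and 14.7%, and those of genes not called in 36.6% and 13.7%. A match describes letters and not binding. The 250 bases before the start of Ccnb2 and of Cdk1, the mitotic kinase, are printed on the gene's strand with matches in capitals.
Ccnb2 (chr9:70421555-70421804, - strand): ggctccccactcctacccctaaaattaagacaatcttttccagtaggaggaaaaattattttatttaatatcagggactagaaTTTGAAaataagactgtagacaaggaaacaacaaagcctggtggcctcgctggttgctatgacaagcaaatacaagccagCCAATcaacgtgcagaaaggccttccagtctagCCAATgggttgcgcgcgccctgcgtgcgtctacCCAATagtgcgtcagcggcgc
Cdk1 (chr10:69352913-69353162, - strand): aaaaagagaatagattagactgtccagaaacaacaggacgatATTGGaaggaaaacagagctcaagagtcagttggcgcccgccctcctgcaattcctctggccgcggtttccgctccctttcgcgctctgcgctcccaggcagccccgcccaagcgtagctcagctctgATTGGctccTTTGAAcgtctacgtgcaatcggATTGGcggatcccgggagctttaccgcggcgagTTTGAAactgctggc
The Ccnb2 stretch has 3 CCAAT and 1 TTTGAA match. The Cdk1 stretch has 3 and 2. Cdk1, chosen for display after its values were seen, went from 872 to 1090 rescaled reads at day 14 to 12.6 to 46.9 at day 56.

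Of 26 matrix proteases and inhibitors 13 fell and 0 rose by limma, with a median of -0.82. Mmp13, a collagenase, held 622, 1565, 1489 and 411 at day 14 and 6.28, 0, 0 and 7.86 at day 56, a change of -8.28 ± 1.03 (SE, adjusted p = 0.00016). Plaur, the urokinase receptor, changed by -2.35, and Ctsk, the collagen-degrading cathepsin K, by -1.18. Mmp2, a gelatinase abundant in fibroblasts, gave -0.23 and the inhibitors Timp2 and Timp3 0.57 and 0.40, none past the test. Timp3 passed without day 56 replicate 2, at an adjusted p of 0.041.

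Of 27 chemokine, cytokine and acute-phase genes 14 fell and 0 rose by limma, with a median of -0.83. Saa3, an acute-phase apolipoprotein, held 6155, 9210, 8811 and 5869 at day 14 and 142, 280, 170 and 254 at day 56, a change of -5.17 ± 0.38 (SE, adjusted p = 4.1e-06). Lcn2, an iron-trapping lipocalin, changed by -4.92 and Serpina3n, a secreted protease inhibitor, by -2.39. Il33, an alarmin held in the nucleus, went from 15148 to 30364 at day 14 to 5534 to 8670 at day 56, a change of -1.64. Il6, Cxcl1 and Ptgs2 gave -0.19 to 0.64 and did not pass.

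Leukocyte transcripts fell beside these genes although CD45-positive cells were gated out. Of 26 leukocyte markers 13 fell, with a median of -1.76. Their summed level in CPM, recovered reads scaled to the library total, was 2473, 1555, 864 and 2754 in day 14 replicates 1 to 4, 263, 863, 724 and 590 in day 56 replicates 1 to 4, and 346 to 515 in sham. Csf1r and C1qb, of macrophages, changed by -2.46 and -2.47, and Lyz2, lysozyme, by -2.12 with overlapping groups (adjusted p = 0.012, and 0.052 in a fit without sham). Day 14 replicate 3 and day 56 replicate 2 held nearly the same leukocyte sum, 864 and 863. In those 2 libraries Lyz2 was 10679 and 11844, Spp1 385643 and 4048, Saa3 8811 and 280, and Timp1 36268 and 3515. This single pair was chosen by its sums. Its libraries also differed in sex transcripts, Y-linked in the day 14 and Xist in the day 56 library. Day 56 replicate 2 was also high in short transcripts, and the leukocyte markers have a median length of 1363 bases. The part of leukocytes in the falls was not tested. With the Xist-positive day 14 libraries alone 7 leukocyte markers fell.

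Red cell genes fell in 4 of 5 cases, with summed levels of 40.0 to 86.2 CPM at day 14, 3.55 to 21.6 at day 56 and 19.6 to 35.1 in sham. None of 18 endothelial markers passed the limma or edgeR test, with 1 higher and 3 lower at an unadjusted p under 0.05 and 1 higher and 2 lower by DESeq2, and their sum was 152 to 265 at day 14 and 215 to 224 at day 56. The sum of 16 epithelial markers was 62.3 to 114 and 74.5 to 248. By limma 1 of them passed, the surfactant gene Sftpa1, which rose by 1.88. Its call was lost in 5 of 22 alternatives, with Xist status in the fit, with the Xist-positive day 14 libraries alone, in a fit without sham, and without day 14 replicate 2 or 4, at adjusted p of 0.058 to 0.13. Sftpc, surfactant protein C, gave 1.23 (adjusted p = 0.062) and passed in 6 alternatives, edgeR and DESeq2 among them, and without day 14 replicate 1 or day 56 replicate 1. None of 10 mesothelial markers passed by limma, edgeR or DESeq2, with 2 higher and 2 lower at an unadjusted p under 0.05, and with sums of 67.6 to 101 and 103 to 152. The part of these transcripts in the other results was not tested.

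**Figure D4:**
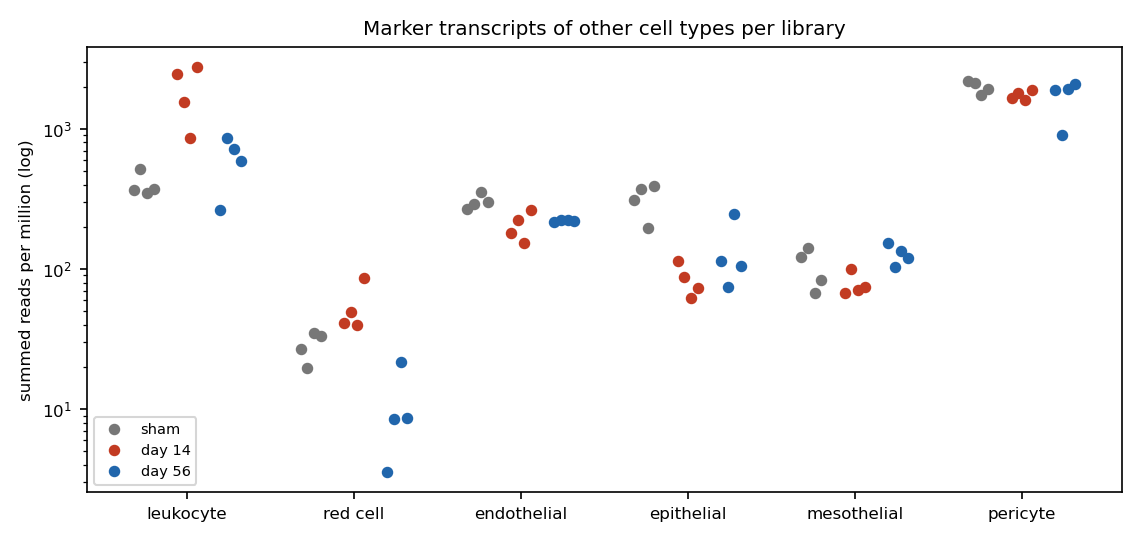
Summed CPM (log axis) of the marker transcripts of 6 cell types in each sham, day 14 and day 56 library. Leukocyte sums reach 2754 at day 14, and red cell sums reach down to 3.55 at day 56. The pericyte sum of day 56 replicate 2, the library low in long transcripts, lies at 901, below all other libraries.

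Genes of resting alveolar fibroblasts came up. Of 16 markers 8 rose and 0 fell by limma, with a median of 0.97. Inmt, an enzyme that methylates indole amines, held 17866, 10903, 18972 and 16504 at day 14 and 156766, 204388, 164231 and 121165 at day 56. It rose 10.1-fold, a change of 3.34 ± 0.26 (SE, adjusted p = 6.4e-06), and its day 56 range overlapped the 135053 to 337375 of sham. Tcf21, a transcription factor of lung fibroblasts, held 3888, 2337, 2286 and 2429 at day 14 and 8366, 10258, 11569 and 6993 at day 56, a change of 1.78 ± 0.21 (SE, adjusted p = 0.00012). Replicate 1 was the highest of its day 14 libraries and still below all of day 56. Npnt held 17449, 12607, 13598 and 16033 at day 14 and 54018, 21467, 40156 and 42485 at day 56. Slc7a10, an amino acid transporter, rose by 3.86 and Fgfr4, a fibroblast growth factor receptor, by 2.54.

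Pparg, the nuclear receptor of lipid-storing fibroblasts, did not pass the test. It held 118, 87.3, 79.0 and 120 at day 14 and 142, 119, 180 and 77.7 at day 56, overlapping groups with a change of 0.32 (adjusted p = 0.62). Plin2, of lipid droplets, and Lpl, lipoprotein lipase, gave -0.03 and -0.48 and did not pass. In the list of 21 lipid genes 2 rose and 4 fell. Angptl4, an inhibitor of lipoprotein lipase, changed by -2.41, and its day 56 libraries, at 2637 to 4045, were below every sham library, at 5542 to 9827.

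Adventitial markers went both ways. Of 17, 8 rose and 3 fell, with a median of 0.53. Pcolce2, an enhancer of procollagen processing, held 9751, 7166, 7506 and 7686 at day 14 and 32777, 41273, 41095 and 28370 at day 56, a change of 2.15 ± 0.15 (SE, adjusted p = 3.6e-06). Adh7, an alcohol dehydrogenase that acts on retinol, rose by 2.39, and Cd34, a surface sialomucin, by 1.03. Pi16, the marker most used for these cells, held 34720, 53296, 57398 and 41995 at day 14 and 30822, 48745, 54932 and 42362 at day 56. Its groups overlapped, and the change of -0.09 (adjusted p = 0.85) turned positive under 5 alternatives. Il33 fell, as given above, and Ly6c1, a surface antigen, changed by -1.09, with an adjusted p just past the threshold, at 0.0501, with Xist status in the fit and of 0.089 with the Xist-positive day 14 libraries alone, where 4 adventitial markers rose.

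Of 9 peribronchial markers 3 rose and 0 fell. Enpp2, which makes lysophosphatidic acid, went from 2703 to 4135 at day 14 to 14054 to 15629 at day 56, a change of 2.04 ± 0.16 (SE, adjusted p = 6.4e-06). With the Xist-positive day 14 libraries alone 1 of them rose. Of 14 pericyte markers 4 rose and 1 fell, and with Xist status in the fit 2 rose. Higd1b, a pericyte transcript, rose by 2.31. Cspg4, the NG2 proteoglycan, went from 3287 to 4555 at day 14 to 163 to 949 at day 56, a change of -2.89 ± 0.40 (SE, adjusted p = 0.00037). Replicate 2, the library low in long transcripts, was the lowest day 56 library for Cspg4. It also had the lowest summed pericyte level, 901 CPM against 1903 to 2087 in the other 3. Of 12 pericyte markers of known length, 6 exceed 4000 bases. The part of length in this sum was not tested.

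Of 24 transcription factors of lung mesenchyme 9 rose and 0 fell by limma, with a median of 0.85. Beside Tcf21, Nr2f2, an orphan nuclear receptor, rose by 1.09, and Nfib, which acts in lung maturation, went from 7523 to 9029 at day 14 to 11795 to 17040 at day 56, a change of 0.91. Tbx4, a T-box factor of lung mesenchyme, gave 0.85 (adjusted p = 0.047). Its call was lost in 12 of 22 alternatives, including without day 14 replicate 1, 2 or 3 or day 56 replicate 1, 3 or 4, at up to 0.13. With Xist status in the fit 6 of the list rose, with the Xist-positive day 14 libraries alone 3, without day 14 replicate 2 5 and on the values as deposited 5.

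Of 25 factors tied to fibroblast activation 7 fell and 2 rose. Etv4, an ETS factor downstream of growth factor receptors, went from 366 to 519 at day 14 to 0 to 11.4 at day 56, a change of -7.41, and Hif1a, of the hypoxia response, changed by -1.28. Snai2, a zinc finger factor known from epithelial-mesenchymal transition, rose by 1.07, and its day 56 libraries, at 2504 to 2998, were above every sham library, at 1436 to 2415. Yap1, Wwtr1 and Srf gave -0.19 to 0.73 and did not pass. With Xist status in the fit 4 of the list fell.

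Immediate-early and dissociation genes, which respond to handling of cells as well as to signals in tissue, rose in 11 of 24 cases and fell in 1, with a median of 0.97. Nr4a1, an orphan nuclear receptor, held 15282, 11083, 20736 and 11386 at day 14 and 51975, 49210, 65030 and 38383 at day 56, a change of 1.83 ± 0.21 (SE, adjusted p = 8.9e-05). Btg2, an antiproliferative gene, rose by 1.59, the zinc finger factor Egr1 by 1.55 and the heat shock gene Hspa1a by 1.53. The summed level of the list was 5399 to 8837 CPM at day 14, 13486 to 18797 at day 56 and 13840 to 21012 in sham. Fosl1, the AP-1 subunit Fra-1, went against the list, with 223, 412, 498 and 198 at day 14 and 54.5, 79.4, 23.4 and 69.9 at day 56, a change of -2.55 ± 0.54 (SE, adjusted p = 0.0064). With the Xist-positive day 14 libraries alone its adjusted p was 0.069. The AP-1 subunits Fos and Junb, named here after their values were seen, rose by 1.15 and 0.75. The part of handling in these values was not tested.

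Of 21 genes of glycolysis and hypoxia 9 fell and 1 rose. Ldha, lactate dehydrogenase A, went from 28364 to 42469 at day 14 to 11018 to 15236 at day 56, a change of -1.43 ± 0.16 (SE, adjusted p = 6.7e-05), and the glycolytic enzymes Eno1 and Pkm changed by -1.14 and -0.95. Of 24 secretory pathway genes 7 fell and 1 rose, and 4 fell with Xist status in the fit. Sec61a1, of the channel into the endoplasmic reticulum, changed by -0.72, and Kdelr2, a retrieval receptor, by -0.81. Of 28 BMP and WNT genes 5 rose and 2 fell, and 9 rose after adjustment for length. The ligands Bmp4 and Bmp3 rose by 1.15 and 1.66, while Lef1, a WNT-responsive factor, changed by -2.14 and Fstl1, a secreted glycoprotein, by -1.29. Of 25 interferon genes 2 rose and 1 fell, and of 21 cholesterol genes 2 rose and 0 fell. In these lists 22 and 19 members were not called, and over all genes tested 5.71% rose and 8.49% fell. The rises of the interferon genes Gbp2 and Cmpk2 were lost in 11 and 2 of 22 alternatives. Those of the cholesterol genes Insig1 and Sc5d were lost in 7 and 4. Of 16 senescence and p53 target genes 3 fell, and 1 with Xist status in the fit. Cdkn2b, the p15 cell cycle inhibitor, went from 512 to 925 at day 14 to 141 to 273 at day 56, a change of -1.80, and Cdkn1a, the p21 inhibitor, gave 0.17 and did not pass.

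Among called genes whose groups did not overlap and whose mean reached 50 rescaled reads, the 10 largest falls were those of Serpinb2, Mmp13, Kif18b, Kif4, Klhdc8a, Bub1, Etv4, Plk1, Birc5 and Hmmr. All of them but Birc5 and Hmmr were at 0 in both day 56 replicates 2 and 3, the libraries with the fewest detected genes. With a pseudocount of 1, such zeros weigh on the size and the rank of these falls. Over the 22 alternatives the change ran from -10.6 to -4.71 for Serpinb2 and from -8.18 to -4.15 for Plk1. The calls of the 10 genes held in all of them. Kif18b, Kif4, Bub1, Plk1, Birc5 and Hmmr act on the spindle or chromosomes in mitosis. Serpinb2, a plasminogen activator inhibitor, held 902, 1198, 1327 and 583 at day 14 and 0, 0, 0 and 1.75 at day 56. The reads behind these values were 4476 and 2, a depth-corrected ratio of 1738 with a 95% interval of 481 to 14352 that covers counting error only. Klhdc8a, a kelch-domain protein, held 247 to 349 at day 14 and was at 0 at day 56 in all libraries but replicate 4.

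Among the largest rises were those of Mrgprg, Myoc, Angptl1, Esr2, Slc25a21, Slc7a10, Thsd7b, Colgalt2 and Gsg1l, most of them genes of low level. Myoc, myocilin, held 3.58, 13.4, 3.99 and 4.13 at day 14 and 117, 114, 209 and 201 at day 56, a change of 4.60 ± 0.55 (SE, adjusted p = 0.00013). Colgalt2, which adds galactose to collagen, went from 13.4 to 57.9 at day 14 to 168 to 591 at day 56, a change of 3.78. Mrgprg, an orphan receptor, and Thsd7b, a thrombospondin-domain protein, held 71.6 to 220 and 236 to 506 at day 56, above every sham library, at 0 to 59.8 and 51.9 to 126. Neither passed the limma test of day 56 against sham, with adjusted p of 0.61 and 0.66. With the Xist-positive day 14 libraries alone the adjusted p was 0.051 for Mrgprg, 0.08 for Esr2 and 0.074 for Slc25a21, and without day 56 replicates 2 and 3 it was 0.054 for Esr2 and 0.059 for Slc25a21.

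Against sham, the day 56 libraries gave few calls. Sex moved with this comparison too, with Xist in all 4 day 56 libraries and in sham replicate 2 alone. Its part in the differences from sham was not tested. By limma 0 genes were higher and 1, Angpt4, was lower than in sham (0.00474% of those tested), with 1328 at an unadjusted p under 0.05, while at day 14 2020 were higher (9.57%) and 1343 lower (6.36%). edgeR called 0 higher and 1 lower, with 967 at an unadjusted p under 0.05, and DESeq2 called 59 and 28. Angpt4, an angiopoietin named here after its values were seen, held 2256 to 3410 in sham, 564 to 997 at day 14 and 936 to 997 at day 56, so it was low on both days. Thus no gene described above as lying wholly above or below sham at day 56 passed the limma test against sham. A p above the threshold does not show that levels were equal. These comparisons share libraries with the one above, so values are set side by side only. Against sham, Inmt changed by -3.73 at day 14 and -0.39 at day 56, Col1a1 by 2.54 and 0.00, and Timp1 by 3.81 and -0.10. Spp1 gave 8.74 and 1.89 (adjusted p = 0.055 at day 56), and Cthrc1 7.15 and 2.40 (adjusted p = 0.061 at day 56). Of the 2997 genes called between day 56 and day 14, 140 had all 4 day 56 libraries outside the sham range, 4.67% against 2.57% of all genes tested. Among genes that fell, 32 (1.79%) stayed above every sham library and 30 (1.67%) lay below, and among genes that rose 52 (4.32%) lay above and 26 (2.16%) below. These genes were called on the same day 56 values, so the shares depend on that choice and do not test a lasting change.

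Chromatin was set beside RNA through the authors' deposited table of ATAC-seq regions that differed between the same days. ATAC-seq marks DNA that is open to a transposase. The authors' deposited table holds 21413 regions on mm10, 15778 less and 5635 more accessible at day 56, each with an absolute log2 fold of at least 1 and an FDR of at most 0.05, and names the nearest gene. Of genes whose RNA fell, 41.0% were nearest to at least 1 region that lost accessibility and 10.6% to at least 1 that gained it. Of genes whose RNA rose the shares were 31.7% and 30.3%, and of genes not called 25.4% and 10.7%. The number of regions near a gene also depends on the size of its neighbourhood, whose part was not tested.

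**Figure D5:**
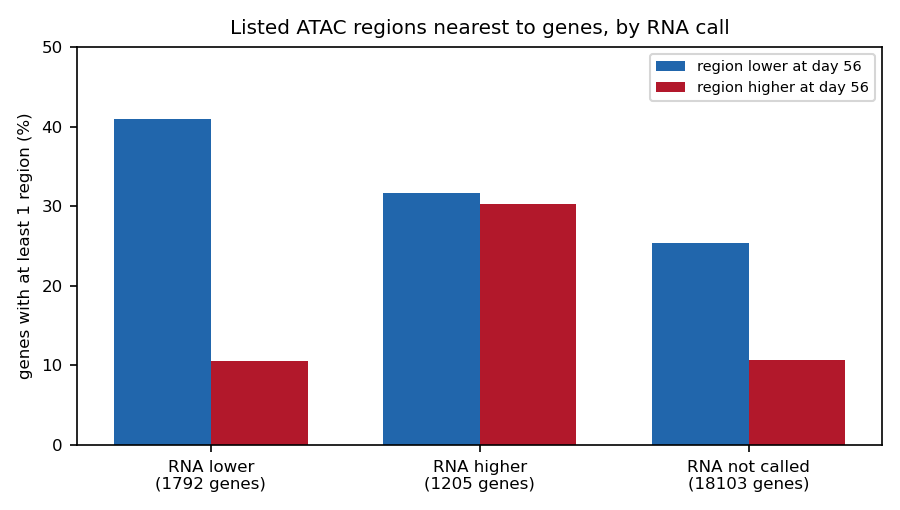
Share of genes (%) that are the nearest gene of at least 1 region lower or higher in accessibility at day 56 in the authors' deposited table, by RNA call. Genes with rising RNA have a region of gained accessibility in 30.3% of cases, against 10.6% of genes with falling RNA and 10.7% of genes not called.

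In the authors' deposited table Runx1 was nearest to 19 regions that lost accessibility and to none that gained. Spp1 and Tnc had 6 losing regions each, Grem1 3, and Timp1 and Cthrc1 2 each, without a gaining one. Inmt had 3 and Npnt 4 gaining regions and no losing one. Other genes did not pair in this way. Col1a1, whose RNA fell, had 1 listed region, which gained accessibility. Col3a1 had 4 that gained and 3 that lost, and Tcf21 5 and 2. Pparg, whose RNA did not pass the test, had 3 that lost. The table lists no region nearest to Acta2, Ctgf, Tgfb1, Fn1, Ccnb2, Saa3 or Lcn2.

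The letters of these regions differed by direction. Windows of 300 bases at the region centres were searched, and the AP-1 letters TGANTCA were found in those of 57.2% of losing and 7.35% of gaining regions, against 7.81% of all promoters. The RUNX letters TGTGGT were in 37.5% and 16.2%, against 16.8%, and the TEAD letters CATTCC in 24.6% and 21.5%, against 14.7%. All were searched on both strands, and the median GC content of the windows was 48.7% in losing and 45.7% in gaining regions. The authors' deposited table places 3.12% of losing and 1.81% of gaining regions at promoters. All promoters are thus not a matched background for either direction, and a share above theirs does not show enrichment. For each of 6 genes the window printed from GRCm38.p6 is at the region with the largest fold in the direction of the gene's RNA change, with matches to the 3 motifs on either strand in capitals. For Tcf21, 2 losing regions had larger folds in the authors' deposited table, -2.09 and -1.88. The first 4 lost accessibility beside falling RNA, and the last 2 gained it beside rising RNA.
Spp1, intergenic (chr5:104380593-104380892, + strand): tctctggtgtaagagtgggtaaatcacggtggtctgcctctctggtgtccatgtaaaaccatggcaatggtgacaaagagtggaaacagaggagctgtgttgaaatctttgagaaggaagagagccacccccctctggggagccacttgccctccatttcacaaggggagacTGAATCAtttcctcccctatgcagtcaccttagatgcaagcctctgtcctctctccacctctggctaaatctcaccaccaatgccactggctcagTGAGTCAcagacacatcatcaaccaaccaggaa
Tnc, intergenic (chr4:64098398-64098697, + strand): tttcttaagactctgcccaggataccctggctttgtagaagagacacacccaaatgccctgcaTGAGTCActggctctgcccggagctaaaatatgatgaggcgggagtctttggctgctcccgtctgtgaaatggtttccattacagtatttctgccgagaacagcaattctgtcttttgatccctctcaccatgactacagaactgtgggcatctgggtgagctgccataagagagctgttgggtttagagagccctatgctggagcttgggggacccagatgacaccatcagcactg
Grem1, intergenic (chr2:113765024-113765323, + strand): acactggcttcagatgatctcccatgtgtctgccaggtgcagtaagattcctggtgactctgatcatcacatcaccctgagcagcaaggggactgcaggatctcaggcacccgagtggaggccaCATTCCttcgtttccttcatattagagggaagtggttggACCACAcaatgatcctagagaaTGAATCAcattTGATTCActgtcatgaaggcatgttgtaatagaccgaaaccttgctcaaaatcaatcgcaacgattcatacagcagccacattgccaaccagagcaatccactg
Runx1, intronic (chr16:92782452-92782751, + strand): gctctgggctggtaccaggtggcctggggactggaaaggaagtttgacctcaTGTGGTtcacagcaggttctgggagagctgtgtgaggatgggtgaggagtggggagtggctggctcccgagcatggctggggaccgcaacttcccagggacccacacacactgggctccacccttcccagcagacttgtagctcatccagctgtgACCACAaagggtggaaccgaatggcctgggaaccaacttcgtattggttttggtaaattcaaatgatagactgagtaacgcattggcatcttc
Tcf21, intergenic (chr10:22927992-22928291, + strand): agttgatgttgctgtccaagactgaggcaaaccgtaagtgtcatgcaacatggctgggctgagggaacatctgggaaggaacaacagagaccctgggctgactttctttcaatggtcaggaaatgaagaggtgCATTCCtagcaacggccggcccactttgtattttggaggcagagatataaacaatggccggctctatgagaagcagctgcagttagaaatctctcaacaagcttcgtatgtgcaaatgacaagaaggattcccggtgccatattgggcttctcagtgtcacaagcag
Npnt, intronic (chr3:132995247-132995546, + strand): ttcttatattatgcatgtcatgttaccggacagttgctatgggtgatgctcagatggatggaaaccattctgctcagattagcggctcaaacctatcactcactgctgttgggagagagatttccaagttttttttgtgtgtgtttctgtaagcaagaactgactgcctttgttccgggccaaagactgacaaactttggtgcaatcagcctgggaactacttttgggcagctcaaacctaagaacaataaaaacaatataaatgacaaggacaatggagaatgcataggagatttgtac
In the authors' deposited table the log2 read concentration of the Spp1 region, 54.4 kb from the start, was 6.55 at day 14 and 3.16 at day 56, a log2 fold of -3.39 with an FDR of 5.88e-21. The printed window, which is shorter than the region, holds 2 AP-1 matches and no RUNX or TEAD match. The Tnc region, 51.5 kb from the start, has a fold of -2.91 in the authors' deposited table and 1 AP-1 match in its window. The Grem1 region, 6.5 kb from the start, has a fold of -3.67 there, with 2 AP-1 matches, 1 RUNX and 1 TEAD match in its window. The Runx1 region, 43.5 kb from the start, has a fold of -3.93 in that table. Its window, which is longer than the region, has 2 RUNX matches, neither of them wholly inside the region. The window of the Tcf21 region, 108.0 kb away with a fold of 1.56, holds 1 TEAD match, and that of the Npnt region, with a fold of 1.89, holds none of these letters.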

How the data were processed

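RNA-seq of 4 sham, 4 day 14 and 4 day 56 libraries was used. Per the submitters' processing notes, HISAT2, featureCounts (Subread) and DESeq2 were applied on mm10, with no version, strand setting or library kit named. The authors deposited normalized signal values, gene counts divided by 1 size factor per library. Dividing each column by its smallest positive value gave whole reads, within 0.05, for 100% of values. Day 56 columns sat lower than the others, so all 12 were rescaled with 1 median-of-ratios factor each (0.9086 to 0.9286 at day 56, 1.062 to 1.074 elsewhere).

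Log2 values with a pseudocount of 1, for genes with a mean of at least 1, entered limma 3.58.1 (R 4.3.3) with a term for group over 12 libraries, 9 residual degrees of freedom and an adjusted p threshold of 0.05. A log2 fold change on this scale understates the change of low genes. Alternatives were edgeR 4.0.16 and DESeq2 1.42.0 on recovered counts, other scalings, pseudocounts and filters, Xist status, and libraries left out. An adjustment for transcript length was chosen after seeing the data. It removed a smooth trend on the longest annotated transcript from each library. The fit was also run on counts simulated with the same spread for every gene and no length or sex difference. That run does not show how the fit behaves under the length and sex differences seen here.

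The authors also deposited log2 fold changes and p-values for the RNA, not used here, and for ATAC regions a log2 read concentration, a log2 fold, p-values and an FDR. Bowtie2, MACS2, DiffBind and HOMER are named in the submitters' processing notes. The labels do not state whether libraries were pooled for peak calling.

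The members and gene lists were chosen with earlier results of these data known. Named genes are a panel of 20, the 10 largest falls and 10 largest rises among called genes whose groups do not overlap and whose higher mean is at least 50, the 5 lowest adjusted p, and in each list up to 3 members of lowest adjusted p per direction, the most abundant member and called members against the list's direction; 1 gene that this rule names is not reported here. Replicate numbers did not pair the libraries (correlation of deviations -0.16 to 0.12). Intervals cover counting error only.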

Additional observations from a re-analysis of the deposited data

Results flagged for a closer look

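In 9 of 106 groups of 4 libraries, 1 library lay farther from the other 3 than Dixon's 95% limit for 4 values. Chance gives about 1 in 20 such cases. Postn was 17997 rescaled reads in day 56 replicate 4 and 8379 to 9301 in the other 3. Tcf21 was 3888 in day 14 replicate 1 against 2286 to 2429. Day 14 replicate 2 was high for 3 genes, with Top2a at 2169 against 1240 to 1357, Myoc at 13.4 against 3.58 to 4.13, and Esr2 at 12.6 against 0 to 2.07. Day 56 replicate 4 was the only day 56 library above 0 for Serpinb2 (1.75), Kif18b (6.11) and Klhdc8a (4.37). These values rest on 2, 7 and 5 reads, in the day 56 library with the most reads and detected genes. The summed pericyte markers were 901 CPM in day 56 replicate 2, the library low in long transcripts, against 1903 to 2087. Every day 56 library stayed on the same side of every day 14 library for these 8 genes.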

How the results depend on the processing

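Of 137 named genes that were called, 98 kept their call under all 22 alternatives, 39 lost it under at least 1, and 0 reversed. The counts of 1205 higher and 1792 lower genes moved by more than 1.5 times on the values as deposited (777 and 3035), with Xist status in the fit (730 and 1194) and with the Xist-positive day 14 libraries alone (441 and 722), which leaves fewer samples. Without day 14 replicate 2 both also moved by more than 1.5 times (754 and 1107), and the higher count did without day 14 replicate 3 (783) and by DESeq2 (1812, with 2033 lower). edgeR gave 1390 and 1318. Leaving out 1 library gave 754 to 1389 higher and 1107 to 1965 lower. With the replicate number as a block 949 were higher and 1491 lower, and the numbers did not pair the libraries (correlations -0.16 to 0.12). Genes whose sign turned were all uncalled. Pi16 gave 0.034 on total reads, 0.042 with Xist status, 0.0075 with Xist-positive day 14 libraries alone, and 0.019 and 0.075 without day 14 replicate 3 and day 56 replicate 1 (-0.22 to 0.075 over the libraries left out). Mcm4 gave -0.15 as deposited, -0.039 with Xist status, -0.082 with Xist-positive day 14 libraries alone, and -0.065 and -0.038 without day 14 replicate 4 and day 56 replicate 2 (up to 0.12). Aldoa gave 0.091 on total reads, 0.0081 adjusted for length, 0.0085 by edgeR, and 0.018, 0.034 and 0.0061 without day 14 replicate 2, day 56 replicate 1 and day 56 replicate 4 (-0.090 to 0.034). Hspa5 and Cdkn1a gave -0.045 and -0.039 as deposited, -0.027 and -0.073 with Xist-positive day 14 libraries alone, and -0.061 and -0.12 without day 56 replicates 2 and 3, where Tgfbr2 gave 0.0021 and Wwtr1 0.074. Wwtr1 gave 0.021 without day 56 replicate 2 and -0.30 without day 56 replicate 4. The cause was not tested.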

Other observations

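The shortest transcripts gave different counts with and without day 56 replicate 2. Of 615 genes of up to 1000 bases, 29 were higher and 89 lower at day 56. Without that library 23 were higher and 186 lower, and with each library adjusted for length 84 were higher and 98 lower.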
